A study of Mus musculus with 6 samples.

Results

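Keratins, claudins and the genes of the desmosome were followed in liver metastases of 4T1 cells with and without a hairpin against Zdhhc17. The members are every gene of the count table whose symbol names a keratin (Krt), a claudin (Cldn), a plakophilin (Pkp), a desmoglein (Dsg) or a desmocollin (Dsc), together with Dsp, Jup, Epcam and Perp. This gave 54 of 24167 genes, and 35 of the 54 had enough counts to be tested. 4T1 is a mouse triple-negative breast cancer line, and its cells carried a lentiviral pLKO.1 vector with puromycin selection, encoding either a scrambled hairpin (shSCR) or a hairpin that silences Zdhhc17 (shZdhhc17), the gene of a palmitoyltransferase. Both lines were given by hydrodynamic tail vein injection, 500000 cells each, to female BALB/c mice of 6 to 8 weeks, and metastases were dissected on day 10, with 3 libraries of polyadenylated RNA per group. The labels name a single hairpin line per group, so a difference between lines cannot be told apart from a difference made by the hairpin. The host tissue carries no hairpin. The labels do not tie each library to its own animal, so the spread measured here is the spread between these samples. The question is how metastases differ once this enzyme is silenced.

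Keratins are the intermediate filament proteins of epithelia and polymerize as pairs of a type I with a type II protein. Krt8 and Krt18 form the pair of simple epithelia and are the filament pair of hepatocytes as well, whereas Krt7 and Krt19 mark ducts and glandular carcinomas, and Krt5 and Krt14 the basal layer. Claudins are the membrane proteins that seal tight junctions, and desmosomes tie keratin filaments of neighbouring cells together through cadherins (desmogleins and desmocollins), the linkers plakoglobin (Jup) and plakophilins, and desmoplakin (Dsp). In a liver metastasis these transcripts can therefore come from carcinoma cells, from hepatocytes, and from bile ducts, mesothelium and endothelium. In such bulk tissue fewer cells of a type and less RNA per cell cannot be told apart.

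The upstream sequences of 5 members are shown because they hold 2 pairs of neighbours whose levels are compared here, Krt8 with Krt18 and Cldn4 with Cldn3, and the carcinoma gene Epcam. Each is the 250 bases before the annotated start, from RefSeq on GRCm38.p6, which is an older build than that of the counts. Capitals mark matches on either strand to any of 5 motifs: the TATA box TATAAA, the GC box GGGCGG, the AP-1 motif TGANTCA, the Grainyhead motif AACNNGTT, and CACCTG, the E-box form bound by Snail and Zeb repressors.
Krt8 (chr15:102004343-102004592, minus strand): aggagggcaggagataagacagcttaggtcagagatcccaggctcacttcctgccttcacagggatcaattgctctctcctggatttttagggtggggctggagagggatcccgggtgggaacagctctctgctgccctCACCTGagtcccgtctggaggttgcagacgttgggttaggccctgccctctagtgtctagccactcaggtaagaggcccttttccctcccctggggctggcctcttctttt
Krt18 (chr15:102027966-102028215, plus strand): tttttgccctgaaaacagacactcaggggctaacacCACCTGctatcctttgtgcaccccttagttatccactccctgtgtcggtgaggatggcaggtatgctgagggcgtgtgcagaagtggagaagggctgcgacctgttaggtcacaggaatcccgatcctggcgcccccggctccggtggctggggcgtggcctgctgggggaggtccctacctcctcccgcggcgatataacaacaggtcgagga
Epcam (chr17:87635729-87635978, plus strand): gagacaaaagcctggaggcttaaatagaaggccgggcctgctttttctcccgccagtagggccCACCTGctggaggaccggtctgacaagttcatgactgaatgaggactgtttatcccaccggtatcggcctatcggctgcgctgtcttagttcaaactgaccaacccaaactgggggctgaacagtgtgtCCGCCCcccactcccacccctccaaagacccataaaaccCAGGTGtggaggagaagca
Cldn4 (chr5:134946935-134947184, minus strand): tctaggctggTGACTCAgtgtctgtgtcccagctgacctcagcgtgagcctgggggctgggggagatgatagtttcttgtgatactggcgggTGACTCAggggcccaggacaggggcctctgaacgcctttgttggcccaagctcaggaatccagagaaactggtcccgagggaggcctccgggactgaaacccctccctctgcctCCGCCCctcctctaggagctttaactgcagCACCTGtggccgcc
Cldn3 (chr5:134985964-134986213, plus strand): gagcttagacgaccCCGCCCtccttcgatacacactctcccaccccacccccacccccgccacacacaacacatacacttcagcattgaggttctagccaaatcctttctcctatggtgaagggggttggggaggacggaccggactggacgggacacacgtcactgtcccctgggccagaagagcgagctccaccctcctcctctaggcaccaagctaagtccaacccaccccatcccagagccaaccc
In the RefSeq annotation no protein-coding gene lies between Krt8 and Krt18 on chromosome 15, nor between Cldn4 and Cldn3 on chromosome 5. CACCTG, or its reverse complement, was found at 1 place before Krt8, Krt18 and Cldn4, at 2 before Epcam and at 0 before Cldn3. The AP-1 motif was found at 2 places before Cldn4 and at 0 before the other genes shown. Among all 32851 windows of this length in the table, 17.2% held CACCTG, 32.7% the GC box, 12.4% the TATA box, 6.75% the AP-1 motif and 3.64% the Grainyhead motif. The 34 members found there have 43 windows, of which 32.6% held CACCTG, 34.9% the GC box, 11.6% the TATA box, 9.30% the AP-1 motif and 4.65% the Grainyhead motif. A match describes letters only.

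The silencing and the make-up of the libraries were checked first. Zdhhc17 stood at 32.4 to 34.2 CPM (counts per 1000000, on the normalized library size) in shSCR and 25.9 to 27.8 CPM in shZdhhc17 metastases, lower in each of them (log2 fold change -0.33 ± 0.11, SE) but not past the threshold over all genes (edgeR adjusted p = 0.383). The group is called silenced after its label. Total counts ran from 15832837 to 19186615 per library. The 14 hepatocyte markers, none of them at 0, summed to between 22531 and 58044 CPM in shSCR and between 49014 and 68355 CPM in shZdhhc17 libraries, with the lowest value in shSCR replicate 3. The log2 fold change (shZdhhc17 against shSCR) was above 0 for 11 of these markers and under 0 for 3, and 0 had an unadjusted p under 0.05. The 17 carcinoma epithelial markers summed to 1435 to 1983 CPM in shSCR and to 1979 to 2411 CPM in shZdhhc17 libraries. Most of them are themselves members (Krt5, Krt7, Krt14, Krt17, Krt19, Epcam, Cldn3, Cldn4 and Cldn7), so this list is not a check apart from the members. Lcn2, also a gene of neutrophils, took 22.5% to 46.0% of the sum in shSCR and 56.4% to 69.8% in shZdhhc17 libraries, with a log2 fold change of 1.05. Without Lcn2 the other 16 summed to 930 to 1113 CPM in shSCR and to 633 to 1050 CPM in shZdhhc17 libraries, so the direction of the sum rests on that gene. Of the 17, 16 were tested, Lcn2 among them and Krt5 not. Of these, 13 were under 0 and 3 above, where 50.3% of all genes were above, and 5 had an unadjusted p under 0.05 with edgeR. Without Lcn2, 1 was higher and 3 lower at that level, where 4.72% of all genes were higher and 6.71% lower.

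Over the whole set no member passed the threshold, and the members were split almost evenly in direction. With edgeR's quasi-likelihood test, 0 of 35 tested members had an adjusted p under 0.05, against 0% of the 15567 genes tested. An unadjusted p under 0.05 was found for 7 members, 4 of them higher and 3 lower in shZdhhc17, where 11.4% of all genes had one, 4.72% higher and 6.71% lower. The 4 higher were Pkp4, Krt23, Cldn2 and Cldn3, and the 3 lower were Krt15, Krt19 and Jup. On library totals alone, a scaling that moved the median of all genes from 0.0017 to -0.13, the split was 1 higher and 4 lower, where 2.55% of all genes were higher and 9.92% lower. The 2 groups were fully separated, with no shared range, for 2 members on the higher side (Krt23 and Pkp4), against 7.48% of all genes, and for 2 on the lower side (Krt15 and Jup), against 9.62%. The median log2 fold change was 0.043 over the 35 members and 0.0017 over all genes, with 18 members positive and 17 negative.

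**Figure D1:**
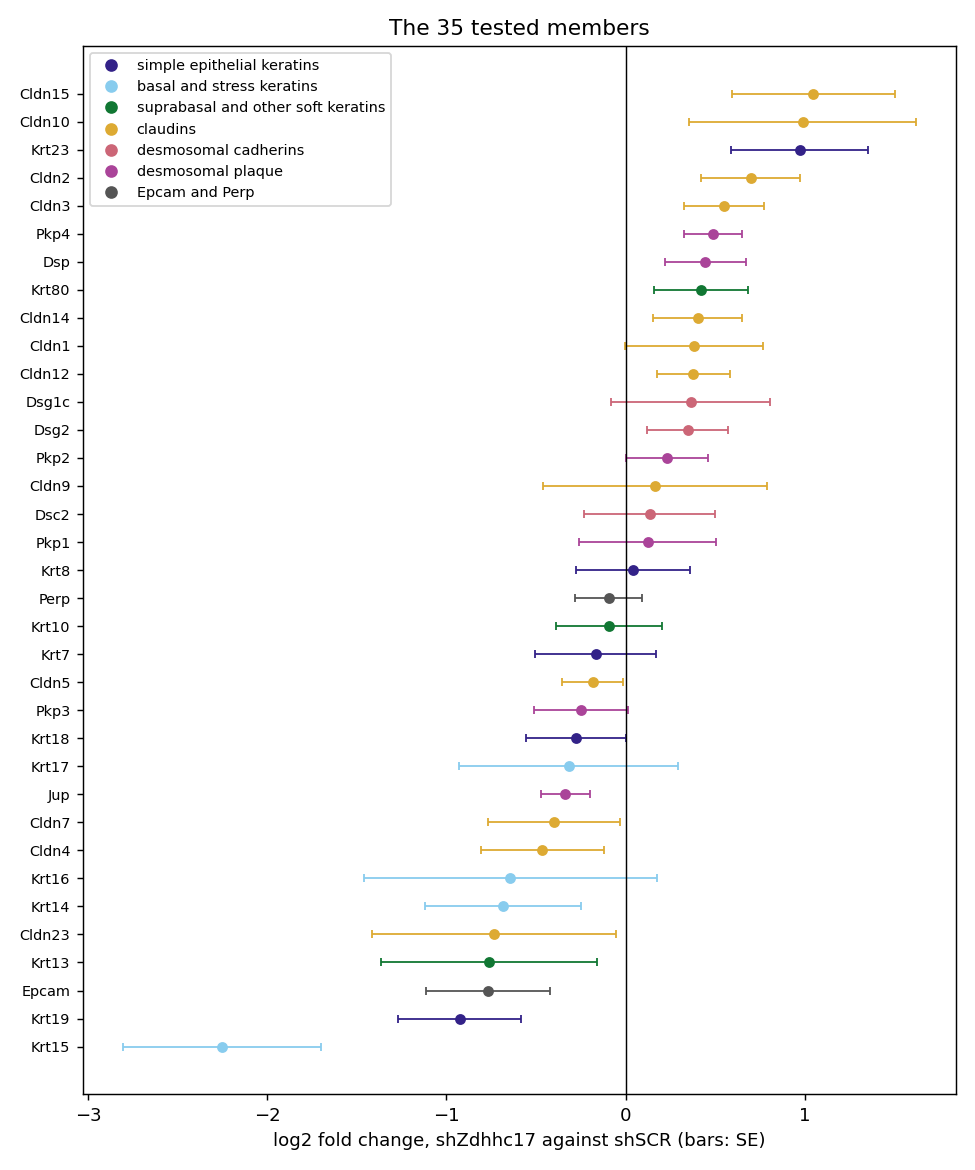
Log2 fold change of shZdhhc17 against shSCR metastases (x axis) for each of the 35 tested members (y axis), with bars of 1 SE and colours for the roles of the genes. Basal keratins, Krt19 and Epcam lie on the negative side, most claudins, Dsp and Pkp4 on the positive side, and Krt8 at 0.043, next to 0.

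Among the simple epithelial keratins, Krt19 was at a lower mean level in shZdhhc17 metastases while Krt8 was not. Krt8 (ENSMUSG00000049382, type II) stood at 1126, 654 and 836 CPM in shSCR replicates 1, 2 and 3 and at 1212, 875 and 606 CPM in shZdhhc17 replicates 1, 2 and 3. The groups overlapped throughout their range, and the fold change was 0.04 ± 0.32 (log2 ± SE, as for all fold changes here; edgeR adjusted p = 0.972). Krt18, its type I partner, stood at 1173, 766 and 1224 CPM in shSCR and at 1089, 870 and 651 CPM in shZdhhc17 libraries. These values overlapped too, at -0.28 ± 0.28 on the log2 scale (edgeR adjusted p = 0.721), and from -0.46 without shSCR replicate 2 to -0.10 without shZdhhc17 replicate 3. Both partners were highest or near highest in replicate 1 of each group. The table also holds the processed copy Krt8-ps at 0.502 to 1.20 CPM, so the sharing of reads between Krt8 and such copies is uncertain, at a level far under that of Krt8.

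Krt19, a type I keratin of ducts and glandular carcinomas, stood at 82.4, 51.7 and 88.9 CPM in shSCR and at 60.3, 30.8 and 26.4 CPM in shZdhhc17 replicates 1, 2 and 3. Replicates 2 and 3 of the silenced group lay under every control, while replicate 1 lay above the lowest control. The log2 fold change was -0.92 ± 0.34 (edgeR adjusted p = 0.405), and it reached -1.36 without shZdhhc17 replicate 1. Krt7, the type II keratin of the same epithelia, stood at 254, 167 and 210 CPM in shSCR and at 293, 147 and 122 CPM in shZdhhc17 libraries. Here replicate 1 of the silenced group was the highest of all 6 libraries and replicates 2 and 3 were the lowest. Its log2 fold change was -0.17 ± 0.34 (edgeR adjusted p = 0.866), with -0.64 without shZdhhc17 replicate 1 and 0.066 without shZdhhc17 replicate 3. Krt23, a type I keratin at few counts, stood at 2.13, 1.31 and 0.837 CPM in shSCR and at 3.40, 2.75 and 2.24 CPM in shZdhhc17 libraries. Each silenced library was above each control (log2 fold change 0.97 ± 0.38; edgeR adjusted p = 0.411).

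Per length, Krt18 and Krt8 exceeded every other member. Their means over the 6 libraries were 670 and 452 CPM per kilobase of annotated exon, followed by Cldn3 at 67.7, Epcam at 59.1, Perp at 47.9, Cldn4 at 37.3, Krt19 at 30.6 and Krt7 at 28.2. The length counts every annotated exon of a gene, 7049 bases for Krt7 against 1855 for Krt19 and 1958 for Krt8. The low place of Krt7, and its part in the type II sum below, rest on that length. Krt18 was above Krt8 on this scale in each of the 6 libraries, by a ratio of 1.22 to 2.00. Together Krt8 and Krt18 took 85.0% ± 0.666 of all keratin counts in shSCR and 87.3% ± 2.31 in shZdhhc17 libraries (SD, n = 3 each). Krt7 and Krt19 together took 12.6% ± 0.340 and 10.8% ± 2.00. Summed per length, the 14 type I keratins stood to the 9 type II keratins at 1.46, 1.62 and 2.01 in shSCR and at 1.24, 1.35 and 1.46 in shZdhhc17 replicates 1, 2 and 3. The highest silenced library and the lowest control nearly coincided in this ratio.

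**Figure D2:**
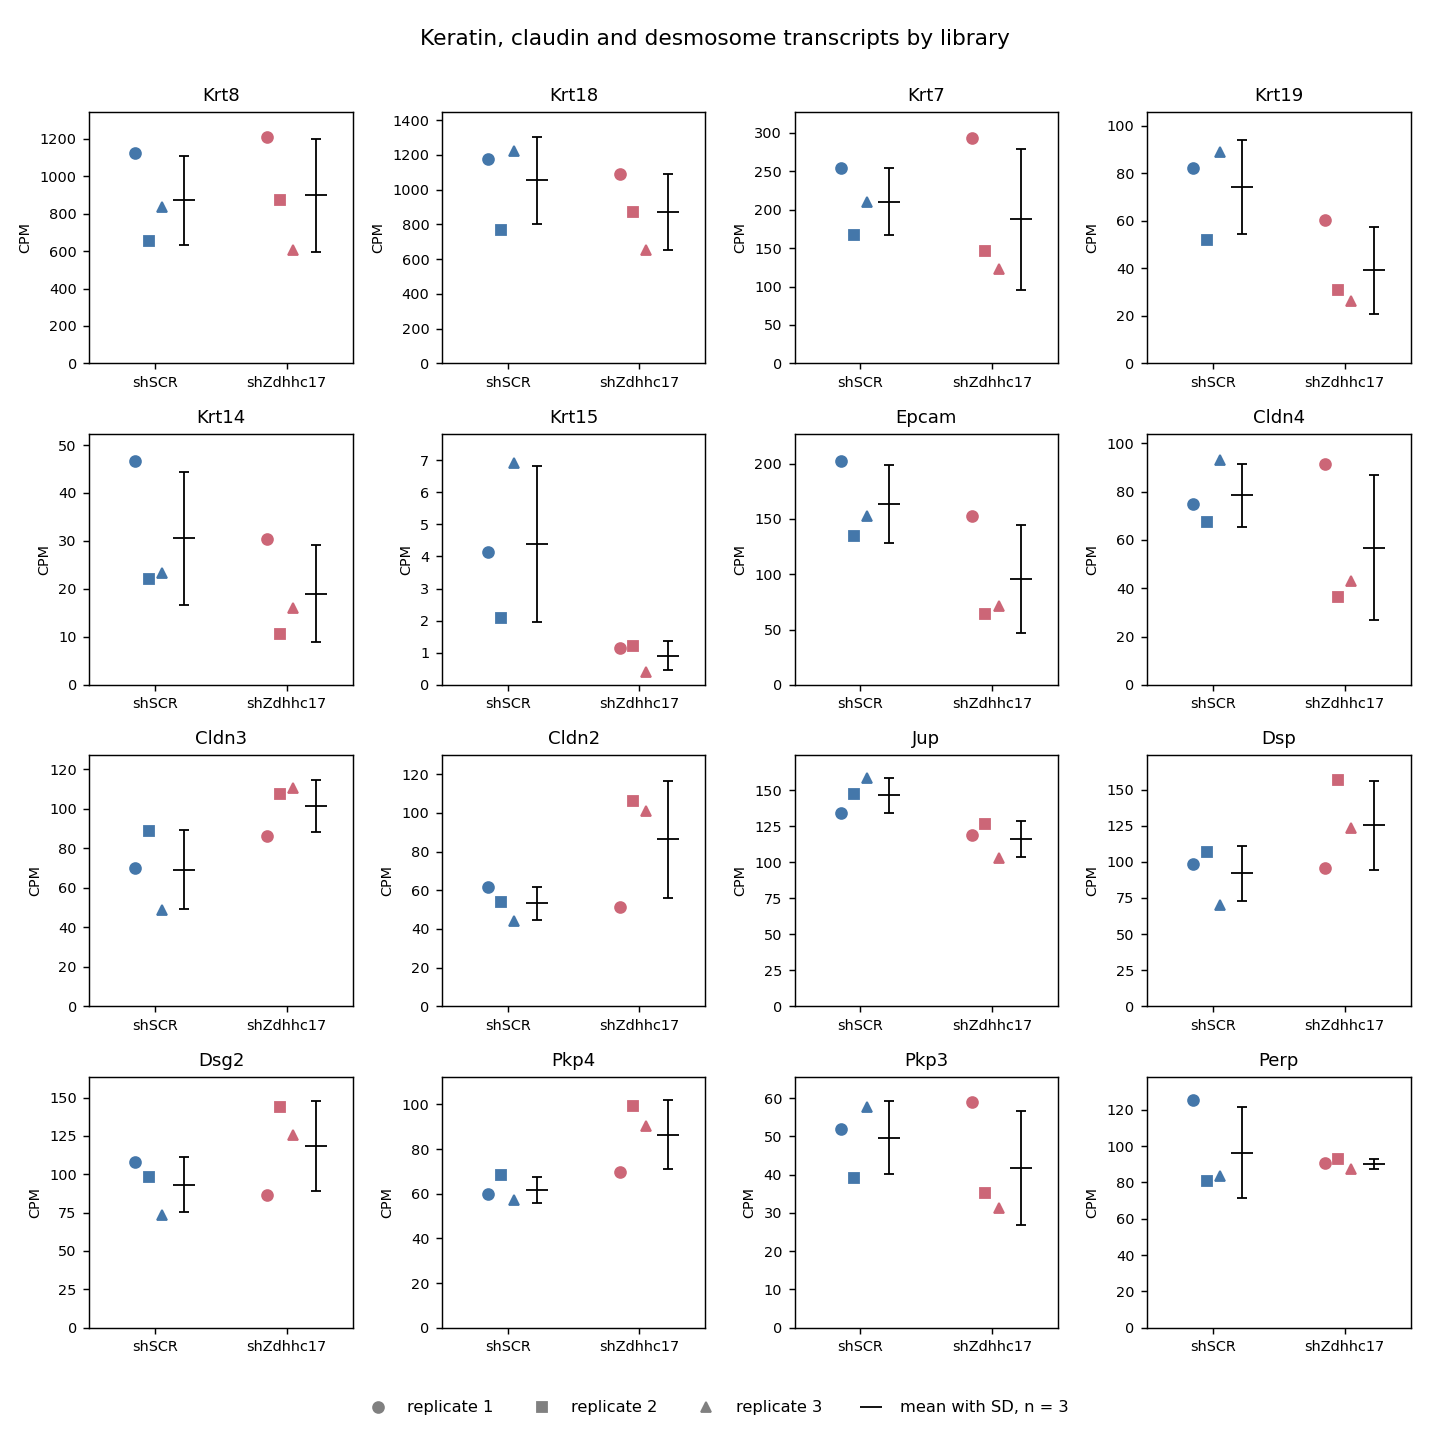
CPM (y axis, from 0) of 16 members in each shSCR (blue) and shZdhhc17 (red) library, with symbols for replicates and a bar for the mean and SD of 3 libraries. In Krt19, Epcam, Krt7 and Cldn4, replicates 2 and 3 of the silenced group are the lowest libraries, and replicate 1 lies among the controls or, in Krt7, above them. In Cldn2, Cldn3, Dsp and Dsg2 those replicates are the highest.

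Basal keratins had negative fold changes throughout. Krt15, a type I keratin of basal and progenitor cells, stood at 4.14, 2.09 and 6.92 CPM in shSCR and at 1.13, 1.19 and 0.396 CPM in shZdhhc17 replicates 1, 2 and 3. Each silenced library lay under each control, at -2.25 ± 0.55 on the log2 scale (edgeR adjusted p = 0.307), the smallest p of any member. It was the 1 member called by DESeq2, which called 1.22% of all genes at an adjusted p under 0.05. Its DESeq2 adjusted p was 0.00902, and so was its q in the authors' deposited DESeq2 table. The q is therefore not a separate line of evidence. Krt14, the type I keratin of the basal layer and the most abundant of this group, stood at 46.6, 21.97 and 23.2 CPM in shSCR and at 30.3, 10.6 and 16.1 CPM in shZdhhc17 libraries. Only replicate 1 of the silenced group exceeded any control. Its value of -0.69 ± 0.44 (edgeR adjusted p = 0.559) became -0.25 without shSCR replicate 1 and -1.19 without shZdhhc17 replicate 1. The stress keratins Krt17 and Krt16 had -0.32 ± 0.61 and -0.64 ± 0.82. Krt17 had 0.20 without shSCR replicate 2 and -1.22 without shZdhhc17 replicate 1, and Krt16 -0.23 without shSCR replicate 1 and -1.44 without shZdhhc17 replicate 1. Krt14, Krt16 and Krt17 are close paralogs, and the split of their reads is uncertain.

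Krt5, the type II partner of Krt14, was too low to test. It stood at 1.25, 1.10 and 0.223 CPM in shSCR and at 0.0629, 0.179 and 0.132 CPM in shZdhhc17 libraries, 54 counts in all. Its q in the authors' deposited table was 0.141. Of the keratins, 13 lie on chromosome 11, and there Krt15 and Krt19 are neighbours, followed by Krt9, Krt14, Krt16 and Krt17, with 0 other protein-coding genes between them. The 5 genes of this run that could be tested had values under 0, as had Krt13, the neighbour of Krt15 on its other side, and Krt10. Krt23 was the 1 tested keratin of chromosome 11 above 0.

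Other keratins were at low levels. Krt80 stood highest among the suprabasal and other soft keratins, at 4.63, 6.64 and 4.19 CPM in shSCR and at 8.30, 6.93 and 5.47 CPM in shZdhhc17 libraries (log2 fold change 0.42 ± 0.26; edgeR adjusted p = 0.553). Its groups overlapped at 1 library. Krt10, a keratin of the suprabasal epidermis, had -0.09 ± 0.30 and Krt13, of internal stratified epithelia, -0.76 ± 0.60. Without shZdhhc17 replicate 3 Krt10 had 0.11, and without shSCR replicate 3 Krt13 had -0.24. The 4 hair and root sheath keratins, Krt83, Krt88, Krt36 and Krt28, had 7 to 12 counts over all libraries and were not tested. Krt83, the highest of them, stood at 0.0545, 0.105 and 0.0558 CPM in shSCR and at 0.126, 0.239 and 0.132 CPM in shZdhhc17 libraries, which is 1 to 4 counts each, too few to read a direction from. Of the 19 members not tested, 15 had fewer than 20 counts in all, the suprabasal keratins Krt76, Krt78, Krt79 and Krt9, the claudins Cldn8, Cldn11, Cldn13 and Cldn20, and Krt42 among them. Krt20, a simple keratin of the gut lining, had 1.13 CPM in shZdhhc17 replicate 1 and at most 0.119 CPM elsewhere. In shZdhhc17 replicate 3 it had 0 counts, which allows up to 0.198 CPM (3 counts, counting error only).

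Epcam, the adhesion protein of carcinoma cells, followed the pattern of Krt19. It stood at 203, 135 and 153 CPM in shSCR and at 152, 64.2 and 71.1 CPM in shZdhhc17 replicates 1, 2 and 3. Replicates 2 and 3 of the silenced group lay below every control, and replicate 1 lay among the controls. The log2 fold change was -0.77 ± 0.34 (edgeR adjusted p = 0.452), with -1.26 without shZdhhc17 replicate 1. Perp, a desmosome-associated target of p53, stood at 125, 80.6 and 83.3 CPM in shSCR and at 90.8, 92.9 and 87.5 CPM in shZdhhc17 libraries. The silenced libraries lay inside the range of the controls (log2 fold change -0.09 ± 0.19; edgeR adjusted p = 0.865).

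Of 12 tested claudins, 8 had a positive and 4 a negative value, with a median of 0.38, where 50.3% of all genes were positive. None passed the adjusted threshold, and 2, Cldn2 and Cldn3, had an unadjusted p under 0.05 with edgeR, as had 11.4% of all genes. Cldn3 and Cldn2, claudins that hepatocytes also make, were the most abundant on the positive side. Cldn3 is also among the 17 carcinoma epithelial markers summed above, so that list is not wholly free of hepatocyte transcripts. Cldn3 stood at 70.2, 88.8 and 48.7 CPM in shSCR and at 86.2, 107 and 110 CPM in shZdhhc17 replicates 1, 2 and 3 (log2 fold change 0.55 ± 0.22; edgeR adjusted p = 0.420). Cldn2 stood at 61.5, 53.8 and 44.4 CPM in shSCR and at 51.3, 106 and 101 CPM in shZdhhc17 libraries (0.70 ± 0.28; edgeR adjusted p = 0.413). In both genes replicates 2 and 3 of the silenced group exceeded every control, and replicate 1 did not. Without shSCR replicate 3 Cldn3 had 0.35. Cldn1, Cldn12 and Cldn14 had 0.38 ± 0.39, 0.38 ± 0.20 and 0.40 ± 0.25, each lowest in shSCR replicate 3. Without that library Cldn1 had 0.041, Cldn12 0.20 and Cldn14 0.21. Cldn15 had 1.05 ± 0.46 (edgeR adjusted p = 0.440) on 1.47, 0.941 and 1.06 CPM in shSCR and 1.76, 1.43 and 4.02 CPM in shZdhhc17 libraries, and 0.46 without shZdhhc17 replicate 3.

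Cldn4 and Cldn7, claudins of glandular epithelia and their carcinomas, had the opposite sign. Cldn4 stood at 75.1, 67.6 and 93.0 CPM in shSCR and at 91.5, 36.2 and 42.9 CPM in shZdhhc17 replicates 1, 2 and 3. Replicate 1 of the silenced group was close to the highest control and the other silenced libraries were under the lowest (log2 fold change -0.47 ± 0.34; edgeR adjusted p = 0.611). Without shZdhhc17 replicate 1 it was -0.98, and without shZdhhc17 replicate 2 it was -0.22. Cldn7 had -0.40 ± 0.37, with 7.64 and 7.65 CPM in shZdhhc17 replicates 2 and 3 against 17.1 CPM in shZdhhc17 replicate 1 and at most 19.3 CPM in shSCR. It had -0.88 without shZdhhc17 replicate 1 and -0.12 without shSCR replicate 3. Cldn5, the endothelial claudin, stood at 10.3 to 13.2 CPM in shSCR and 9.50 to 11.5 CPM in shZdhhc17 libraries (-0.18 ± 0.17). Cldn9, Cldn10 and Cldn23 were tested at means under 1 CPM and had 0.16 ± 0.62, 0.99 ± 0.63 and -0.73 ± 0.68. With single libraries left out they ran from -0.54 to 0.51, from 0.54 to 1.51 and from -1.39 to -0.23. The fold changes of Cldn3 and Cldn4, neighbours whose upstream sequences are given above, thus had opposite signs. Counts of Cldn3 per count of Cldn4 were 0.935, 1.31 and 0.524 in shSCR and 0.942, 2.96 and 2.57 in shZdhhc17 replicates 1, 2 and 3, with silenced replicate 1 among the controls. This ratio was chosen after its values were seen and was not tested.

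Cldn18, a claudin of lung and stomach, was at 4.06 CPM in shZdhhc17 replicate 2 and at most 0.330 CPM in any other library. It was not tested and was chosen after its values were seen. The sum of the 5 lung epithelial markers was highest in the same library, although Scgb1a1 was at 0 counts there and highest in shSCR replicate 2. They summed to 102 CPM in that library, to 2.08 and 5.34 CPM in the other silenced libraries and to 10.5 to 52.5 CPM in shSCR, with Sftpb at 0 counts in shZdhhc17 replicate 1. The surfactant gene Sftpc stood at 60.4 CPM in shZdhhc17 replicate 2 and at 0.0629 to 4.74 CPM elsewhere. The part of lung transcripts in the Cldn18 value was not tested.

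Of the 6 desmosomal plaque genes 4 had positive and 2 negative values, and none passed the threshold. Jup, the plakoglobin that links cadherins to desmoplakin and also sits in adherens junctions, stood at 134, 148 and 158 CPM in shSCR and at 119, 127 and 103 CPM in shZdhhc17 replicates 1, 2 and 3. Each silenced library was under each control, at a small distance (log2 fold change -0.34 ± 0.14; edgeR adjusted p = 0.422). Dsp, the desmoplakin that anchors keratin filaments, stood at 98.6, 107 and 70.3 CPM in shSCR and at 95.7, 157 and 123 CPM in shZdhhc17 libraries. The groups overlapped through replicate 1 of the silenced group (0.44 ± 0.23; edgeR adjusted p = 0.491), and without shZdhhc17 replicate 2 Dsp had 0.25. Counts of Dsp per count of Jup were 0.736, 0.726 and 0.444 in shSCR and 0.806, 1.24 and 1.20 in shZdhhc17 libraries, higher in each silenced library, in a ratio chosen after its values were seen and not tested.

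Pkp4, an armadillo relative of the plakophilins that also serves adherens junctions, stood at 59.7, 68.3 and 57.1 CPM in shSCR and at 69.5, 99.5 and 90.4 CPM in shZdhhc17 libraries. Each silenced library exceeded each control, replicate 1 by a narrow margin (log2 fold change 0.49 ± 0.16; edgeR adjusted p = 0.378). Pkp3 and Pkp2, plakophilins of simple and stratified epithelia, had -0.25 ± 0.26 and 0.23 ± 0.23, and Pkp1 had 0.12 ± 0.38 at a mean of 2.00 CPM. Without shZdhhc17 replicate 1 Pkp1 had -0.18 and Pkp3 -0.57, without shZdhhc17 replicate 3 Pkp3 had -0.07, and without shSCR replicate 3 Pkp2 had 0.019. Of the desmosomal cadherins, Dsg2, the most abundant, stood at 108, 98.5 and 73.2 CPM in shSCR and at 86.2, 144 and 125 CPM in shZdhhc17 replicates 1, 2 and 3 (0.35 ± 0.23; edgeR adjusted p = 0.567), with 0.18 without shZdhhc17 replicate 2. As in Dsp, replicates 2 and 3 of the silenced group were the highest and shSCR replicate 3 the lowest. Dsc2 had 0.13 ± 0.37 and -0.17 without shZdhhc17 replicate 2, and Dsg1c had 0.36 ± 0.44 and -0.29 without the same library. Dsg1c has near-identical copies, so its count is uncertain. Dsg3 and Dsc3, the cadherins of stratified epithelia, had 7 and 2 counts in all.

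Set against Krt8 within each library, a measure that needs no scaling between libraries, Krt19 and Epcam were lower in every silenced metastasis. Counts of Krt19 per count of Krt8 were 0.0732, 0.0791 and 0.106 in shSCR and 0.0497, 0.0351 and 0.0436 in shZdhhc17 replicates 1, 2 and 3. The log2 difference was -1.01, and an exact two-sided permutation test gave p = 0.1 (adjusted p = 0.15 over 3 ratios), the smallest p that 3 against 3 allow, so this design cannot reach 0.05. Counts of Epcam per count of Krt8 were 0.180, 0.206 and 0.183 in shSCR and 0.126, 0.0734 and 0.117 in shZdhhc17 libraries, a log2 difference of -0.88 (exact two-sided permutation p = 0.1, adjusted p = 0.15). In both ratios the silenced libraries lay wholly under the controls, replicate 1 included. The share of all genes that separate per count of Krt8 was not computed, and on CPM 9.62% separated on the lower side. Hepatocytes also make Krt8, and their marker sums differed between libraries, so these ratios also depend on the make-up of the tissue. The part of hepatocytes in them was not tested. Krt18 per Krt8 was 1.04, 1.17 and 1.46 against 0.898, 0.994 and 1.07, with 1 overlap (log2 difference -0.30; exact two-sided permutation p = 0.2, adjusted p = 0.2). Not every duct and carcinoma gene separated in this way. Counts of Krt7 per count of Krt8 were 0.226, 0.256 and 0.251 in shSCR and 0.241, 0.168 and 0.202 in shZdhhc17 replicates 1, 2 and 3. These values overlapped through replicate 1 of the silenced group and were not tested. With the sum of Krt8 and Krt18 as the denominator the log2 differences were -0.85 for Krt19 and -0.72 for Epcam. The genes of these ratios were chosen with earlier results known.

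**Figure D3:**
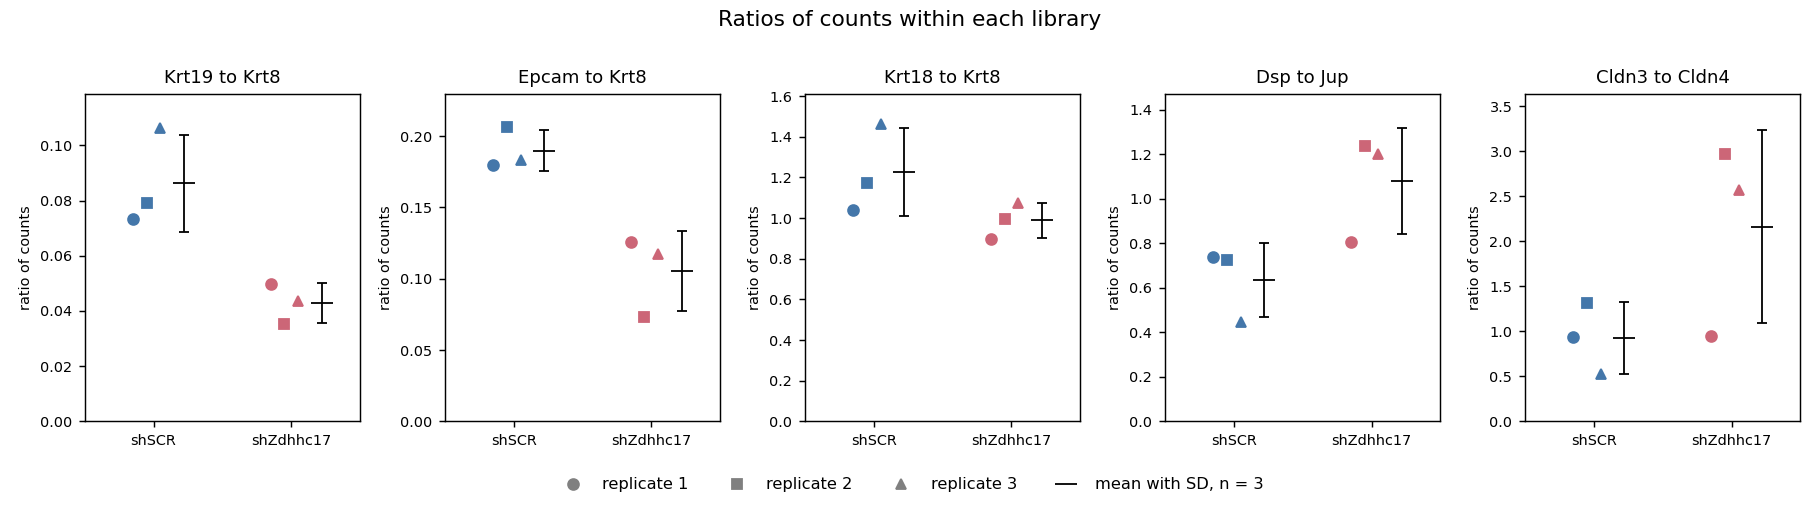
Ratio of counts of 2 genes within each library (y axes, from 0), for shSCR (blue) and shZdhhc17 (red) metastases, with the mean and SD of 3 libraries as bars. Krt19 and Epcam per Krt8 are lower in each silenced library, Krt18 per Krt8 overlaps, and Cldn3 per Cldn4 is high only in silenced replicates 2 and 3.

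When the level of hepatocyte markers was added to the fit, the fold changes of Krt19, Epcam and Krt15 were -0.80, -0.74 and -1.95, near those without it. Those of Cldn1, Dsp and Dsg2 were 0.08, 0.24 and 0.15, against 0.38, 0.44 and 0.35 without it. Cldn2 and Cldn3 had 0.50 and 0.39. Cldn4 had -0.30 in place of -0.47 and Cldn7 -0.11 in place of -0.40. Of the 35 tested members, 18 kept their value within 1.5 times, 15 moved by more in the same direction, and 2 turned, Dsc2 to -0.21 and Krt10 to 0.011. The 9 mesothelial markers, a lining that also makes Krt8, Krt18 and Krt19, summed to 120 to 189 CPM in shSCR and to 117 to 207 CPM in shZdhhc17 libraries, with 0 markers at 0 counts. These sums include Krt19 itself. Without it the other 8 summed to 60.5 to 107 CPM in shSCR and to 86.1 to 147 CPM in shZdhhc17 libraries. Of these, 6 were higher at an unadjusted p under 0.05 and 0 lower, where 4.72% of all genes were higher and 6.71% lower. The 6 ran from 2.10 for Gpm6a to 4.08 for Gata5 on the log2 scale, all at under 20 CPM. None passed the adjusted threshold (edgeR adjusted p = 0.282 to 0.331). The 10 cholangiocyte markers summed to 1755 to 3046 and to 2056 to 2764 CPM, most of it Spp1, which other cells make too, and 0 were at 0. Of the 9 tested, 6 were positive and 3 negative, and 2 had an unadjusted p under 0.05 with edgeR. These were Aqp1 (0.62 ± 0.14) and Onecut1 (1.26 ± 0.54), higher in shZdhhc17, where 4.72% of all genes were higher at that level. Their edgeR adjusted p were 0.307 and 0.437. The parts of mesothelium and bile ducts in these levels were not tested.

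**Figure D4:**
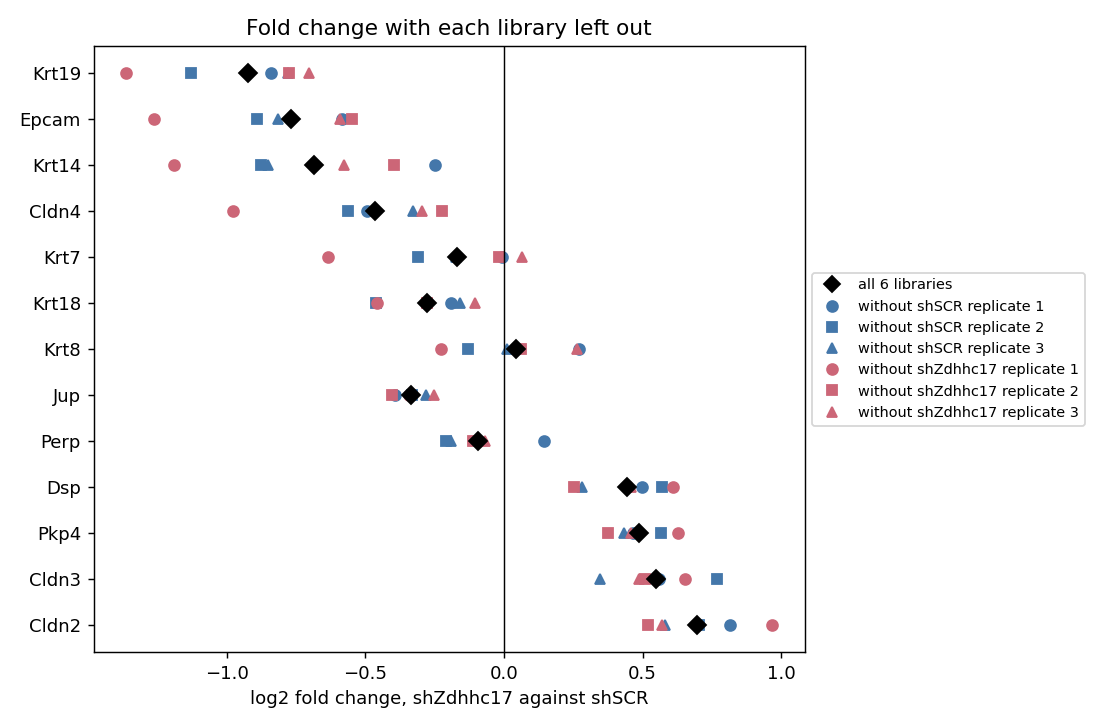
Log2 fold change of shZdhhc17 against shSCR (x axis) for 13 members (y axis) with all 6 libraries (black) and with each library left out (blue for shSCR, red for shZdhhc17, symbols for replicates). The values of Krt19, Epcam, Krt14, Cldn4 and Krt7 lie farthest to the left without shZdhhc17 replicate 1, and those of Krt8 and Perp fall on both sides of 0.

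Other genes of epithelial junctions and identity were followed as a list of 63, of which 60 were tested. None had an adjusted p under 0.05 with edgeR, and the median was 0.015. At an unadjusted p under 0.05, 2 were higher and 5 lower, where 4.72% of all genes were higher and 6.71% lower. At the adherens junction, Cdh1, which encodes E-cadherin, had -0.80 ± 0.30 on 131, 101 and 229 CPM in shSCR and 106, 85.2 and 74.5 CPM in shZdhhc17 replicates 1, 2 and 3 (edgeR adjusted p = 0.405). The highest value was that of shSCR replicate 3, and the groups overlapped. Its partner p120 catenin (Ctnnd1) had -0.35 ± 0.13, and the afadin gene Afdn 0.37 ± 0.14. Of 17 tested tight junction genes 16 were positive, with a median of 0.12 and the largest value, 0.49 ± 0.13, for Lsr, a lipoprotein receptor of tricellular junctions that the liver expresses strongly (edgeR adjusted p = 0.317). Of the 8 epithelial proteases and related genes 7 were negative, with a median of -0.46, among them Cdcp1 at -0.46 ± 0.18. The 8 plakin and hemidesmosome genes split into 4 positive and 4 negative, with a median of -0.0016. Among them the integrin gene Itgb4 had -0.51 ± 0.17 and the integrin gene Itga6 0.05 ± 0.19. The 11 tested epithelial regulators split into 4 positive and 7 negative, with a median of -0.15. Among them the transcription factor gene Tfap2a had -0.59 ± 0.22 and Tfap2c 0.28 ± 0.58. The 7 other intermediate filament genes, vimentin and lamins among them, had a median of 0.11 with none past an unadjusted p of 0.05.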

How the data were processed

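Polyadenylated RNA was sequenced with a strand-marking kit, per the labels' protocols. The submitters' processing notes name STAR 2.6.1, HTSeq, DESeq2 1.34.0, FastQC 0.11.8 and the build GRCm39, with no roles; no source used here states how strand was set in counting. The authors deposited raw counts per gene and a DESeq2 table of log2 fold changes, p-values and q-values; the latter is quoted for Krt15 and Krt5.

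Counts of all genes were tested with edgeR 4.0.16 (robust quasi-likelihood, TMM, filterByExpr, two-sided, Benjamini-Hochberg over 15567 genes, threshold 0.05) in R 4.3.3; the common dispersion was 0.0552. SE is the log2 fold change over the root of F. The test was checked on simulated counts. Exon lengths came from GENCODE on GRCm38 by gene identifier, and 54 of 54 members matched. Alternatives were other scalings and filters, DESeq2 1.42.0, voom of limma 3.58.1, a replicate block, a hepatocyte covariate and leaving out each library. Members, lists and ratios were chosen with earlier results of these data known. Values in every library are given for Krt8, Krt18, Krt19, Krt7, Epcam, Perp, Dsp, Jup, the most abundant member of each tested role and the 6 smallest p in each direction. Total counts per library bound the counting error only.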

Additional observations from a re-analysis of the deposited data

How the results depend on the processing

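Over 18 named members and 14 alternatives, 247 of 252 fold changes kept their direction. Those that did not were Krt8 (-0.061 on library totals alone, and -0.23 to 0.27 with single libraries left out), Krt7 (-0.64 to 0.066) and Perp (-0.21 to 0.14), both with single libraries left out. Among all 35 tested members, leaving out single libraries turned 9 (also Krt10, Krt17, Cldn9, Dsc2, Dsg1c and Pkp1), moved 20 by over 1.5 times in the same direction, and kept Krt15, Krt19, Krt23, Cldn2, Jup and Pkp4 within that. The median of the members was -0.061 on library totals alone and ran from -0.18 to 0.27 with single libraries left out. Members with an unadjusted p under 0.05 numbered 3 with the hepatocyte covariate (10.3% of all genes), and from 2 (without shSCR replicate 3; 7.63% of all genes) to 15 (without shZdhhc17 replicate 1, 6 higher and 9 lower; 6.96% and 6.99% of all genes). DESeq2 called 204 genes and 1 member, Krt15; edgeR called 3 genes without a filter on low counts, 3 with the hepatocyte covariate, and 0 to 1 with single libraries left out, none of them a member. The cause of these shifts was not tested. With the replicate block, Krt19 per Krt8 differed by -1.01 and Epcam per Krt8 by -0.88 (exact sign-flip permutation p = 0.25 each, the smallest that 3 pairs allow), and edgeR called 0 genes, with 1623 at an unadjusted p under 0.05; limma voom without the block called 0, with 1670. Same-numbered libraries correlated in their deviations at -0.059, 0.32 and -0.046, and differently numbered ones at -0.40 to 0.30. With 3 libraries per group these values cannot settle whether the numbers pair the samples. Low members rest on few counts: Krt15 had 284 and Krt23 213 over all libraries.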
